A study of Mus musculus with 24 samples.

Results

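The genes described here encode the AP-1 subunits of the Fos family (Fos, Fosb, Fosl1 and Fosl2), the Jun family (Jun, Junb and Jund) and Atf3, 8 of the 17721 genes of the table used here. They were chosen by symbol, with the rhythm weights and mean levels of these same genes already known, so these values are given as a description and no test was made over the 8 genes. The clock-deficient animals, called EpiKO, were male C57BL/6 mice of 8 weeks that lacked circadian clock activity in the skin epidermis and kept it in other tissues. As background, the clock gene removed in this line is Arntl (BMAL1), through a Cre recombinase under the keratin 14 promoter. That promoter is active in the basal keratinocytes of stratified epithelia. Cells of the epidermis that do not descend from these keratinocytes keep the gene. Back skin was taken from 4 EpiKO animals every 4 h from ZT0 to ZT20 (zeitgeber time, hours after lights on, with 12 h of light), 24 libraries in all, and the epidermis was freed with dispase and made into a cell suspension before RNA was taken. The wild-type (WT) epidermis that the authors set beside it is not among the samples of this series. The table holds fitted values for each gene and none for each library, so no spread between animals and no depth can be given, and genotype and library set cannot be told apart.

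AP-1 is a dimer of a Jun protein with another Jun, a Fos or an ATF protein, and it binds DNA through a basic leucine zipper. Fos, Fosb, Junb and Atf3 are immediate early genes, whose transcripts appear within minutes of growth factors, stress or injury and decay quickly, whereas Jund is kept at a steadier level in many cells. In keratinocytes AP-1 acts on genes of proliferation, wound repair, inflammation and terminal differentiation. Tissue handling and enzymatic dissociation are known to induce immediate early genes as well.

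The promoters of the inducible members are shown because the known response of Fos and Jun to signalling runs through elements close to their starts. RefSeq, on the build GRCm38.p6, gave the stretch before the start of 7 of the 8 genes, and Fosl1 was not among them. Only 1 start per member was used, and it can differ from the gene coordinates given further below. For Jund the stretch ended at 70697738 and the gene began at 70698949. For Atf3 and Fosl2 the stretch lay inside the gene, that of Fosl2 at 32136322 to 32136471 (chromosome 5). Other starts of these genes were not searched. The 150 bases before the RefSeq start are printed 5′ to 3′ for the 5 genes that hold a searched element, at chr12:85473740-85473889 (plus strand) for Fos, chr7:19310046-19310195 (minus strand) for Fosb, chr4:95052223-95052372 (minus strand) for Jun, chr8:84978749-84978898 (minus strand) for Junb and chr1:191183334-191183483 (minus strand) for Atf3. Capitals mark TGACG, the first part of a cAMP response element, on either strand, and in Jun the element TGACATCA, a known binding site of Jun and ATF2 dimers.
Fos: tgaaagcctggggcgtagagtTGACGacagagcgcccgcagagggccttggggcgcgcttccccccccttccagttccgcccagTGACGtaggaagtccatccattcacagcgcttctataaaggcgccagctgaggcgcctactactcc
Fosb: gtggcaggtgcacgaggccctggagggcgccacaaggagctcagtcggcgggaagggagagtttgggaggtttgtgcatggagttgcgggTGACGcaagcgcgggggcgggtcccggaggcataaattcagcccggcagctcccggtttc
Jun: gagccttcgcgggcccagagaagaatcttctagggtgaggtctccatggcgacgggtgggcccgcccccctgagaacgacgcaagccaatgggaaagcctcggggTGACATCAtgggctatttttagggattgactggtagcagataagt
Junb: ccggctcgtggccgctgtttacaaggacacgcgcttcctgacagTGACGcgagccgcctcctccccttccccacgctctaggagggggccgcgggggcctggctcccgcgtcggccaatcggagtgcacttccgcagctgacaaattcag
Atf3: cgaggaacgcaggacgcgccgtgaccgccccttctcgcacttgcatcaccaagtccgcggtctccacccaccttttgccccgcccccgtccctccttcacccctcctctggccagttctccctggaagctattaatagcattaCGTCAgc

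Each element was searched on both strands of the 250 bases before the start, and TGACG is contained in the full cAMP response element TGACGTCA. Fos held TGACG at -129 to -125 and again at -66 to -62 relative to the start, Fosb at -60 to -56, Junb at -106 to -102 and Atf3, on the minus strand, at -7 to -3. These were 4 of 7 members, and 17.8% of 32851 promoters of the same length held it. TGACATCA stood at -45 to -38 in Jun, 1 of 7 members, and in 2.93% of all promoters. None of the 7 members held the canonical AP-1 element TGACTCA (4.46% of all promoters), TGACGTCA (1.55%), the clock element CACGTG (6.02%) or a CArG box, which binds serum response factor (1.47%), within these windows. Sequence farther than 250 bases before the start was not searched. The genes may hold any of these elements there, a CArG box of Fos included. A match is a description of these letters, and binding was not measured.

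For each gene the authors' fit gave 5 rhythm models a weight from 0 to 1, that is, no rhythm, a rhythm in EpiKO only, in WT only, the same rhythm in both, or rhythms that differ. The model with the highest weight gave a gene its class, provided the weight reached 0.5. Of the 8 AP-1 genes, 6 were assigned no rhythm in either genotype (56.7% of all genes), 1 a rhythm in EpiKO only (4.31% of all genes) and 1, Fosl2, was not assigned. No member was assigned a rhythm in WT only (8.41% of all genes), the same rhythm in both (16.7%) or different rhythms (2.65%). Averaged over the 8 members, the weight of no rhythm was 75.7%, against 51.3% over all genes, and that of a WT-only rhythm was 2.77%, against 13.5% over all genes. The mean weight of an EpiKO-only rhythm was 12.4% over the members, of which Fosl1 gave the most, and 9.0% over all genes.

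**Figure D1:**
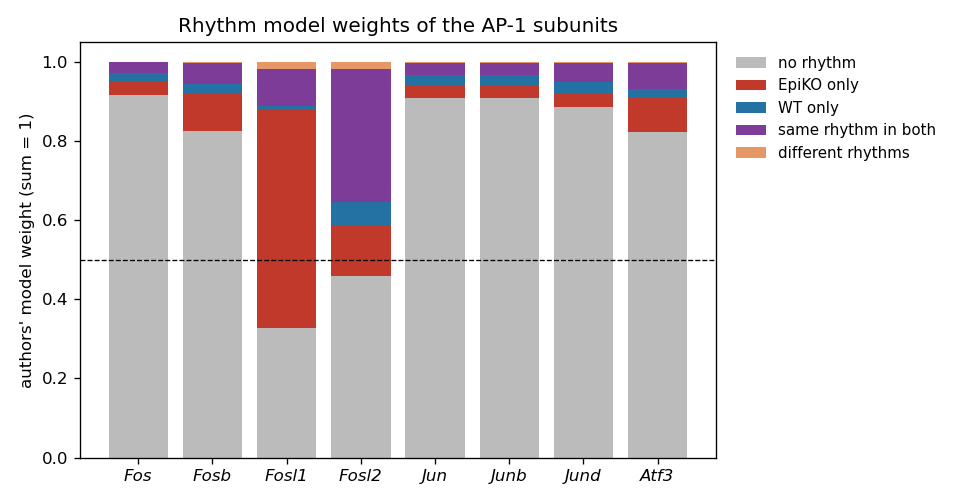
Stacked bars of the authors' weights for 5 rhythm models (y axis, summing to 1) for the 8 AP-1 genes, with a dashed line at the minimum weight of 0.5 used to assign a gene. The grey part, no rhythm, passes 0.8 in Fos, Fosb, Jun, Junb, Jund and Atf3, the red part, EpiKO only, is largest in Fosl1, and Fosl2 is divided between no rhythm and the same rhythm in both.

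The flat members were not equally far from a rhythm. Jun (ENSMUSG00000052684, chromosome 4, 95049034 to 95052222, mm10), the founding Jun subunit, had a no-rhythm weight of 0.910 in the authors' deposited table, which was 28.0 times that of the next model. Junb (ENSMUSG00000052837, chromosome 8, 84974484 to 84978718), a Jun protein that can restrain Jun and is known to limit skin inflammation in mice, had 0.909 in the authors' deposited table. Fos (ENSMUSG00000021250, chromosome 12, 85473890 to 85477273), the prototype immediate early gene, had 0.917 and Jund (ENSMUSG00000071076, chromosome 8, 70698949 to 70700616) had 0.886 in the authors' deposited table. For these 4 genes the 4 rhythmic models shared the small remainder, and neither genotype stood out. Fosb (ENSMUSG00000003545, chromosome 7, 19302696 to 19310051), a close relative of Fos, had a no-rhythm weight of 0.826 and an EpiKO-only weight of 0.0966, next in size, in the authors' deposited table. Atf3 (ENSMUSG00000026628, chromosome 1, 191170296 to 191218039), a stress-induced partner that often represses, had 0.823 for no rhythm and 0.0861 for EpiKO only in the authors' deposited table.

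The weights of all models with a rhythm in a genotype were summed to a weight of any rhythm. This sum was 0.0614 in EpiKO and 0.0497 in WT for Fos, 0.152 in EpiKO and 0.0772 in WT for Fosb, and 0.153 in EpiKO and 0.0912 in WT for Atf3. For Jun it was 0.0638 in EpiKO and 0.0599 in WT, for Junb 0.0632 in EpiKO and 0.0603 in WT, and for Jund 0.0832 in EpiKO and 0.0806 in WT. The median over the 8 members was 0.118 in EpiKO and 0.0789 in WT, and over all genes 0.181 in EpiKO and 0.213 in WT. The members' medians lay below those of all genes in both genotypes. Within a gene, the sums of the genotypes differ by exactly the gap between the EpiKO-only and the WT-only weight.

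Fosl2 (ENSMUSG00000029135, chromosome 5, 32135801 to 32157842), which encodes FRA2, a Fos protein known in the differentiating layers of the epidermis, was not assigned. Its weight was 0.459 for no rhythm and 0.336 for the same rhythm in both genotypes, all from the authors' deposited table, a ratio of 1.36 between them. The remainder lay mostly with EpiKO only, at 0.130, and WT only had 0.0584 in the authors' deposited table. Summed, a rhythm had 0.483 in EpiKO and 0.411 in WT, so the deposited weights do not settle whether Fosl2 cycled.

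Fosl1 (ENSMUSG00000024912, chromosome 19, 5447547 to 5455946), which encodes FRA1, a Fos protein linked to keratinocyte migration and wound edges, was the single member assigned a rhythm. Its EpiKO-only weight was 0.552 and its no-rhythm weight 0.327 in the authors' deposited table, a ratio of 1.69. The EpiKO curve had a peak-to-trough height of 3.68 (log2) with its peak at ZT5.41 in the authors' deposited table, a 12.8-fold range. Fitted EpiKO levels were 7.59 at ZT0, 9.02 at ZT4, 8.74 at ZT8, 7.02 at ZT12, 5.59 at ZT16 and 5.87 at ZT20 (log2), against a flat WT level of 8.56. The EpiKO curve thus stood above WT at ZT4 and ZT8 and below it at ZT0, ZT12, ZT16 and ZT20. At its peak it was 9.14, 1.5-fold above the WT level, and at its trough 5.47, which is 8.53-fold below the WT level. Summed over models, a rhythm of Fosl1 had a weight of 0.663 in EpiKO and 0.121 in WT.

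**Figure D2:**
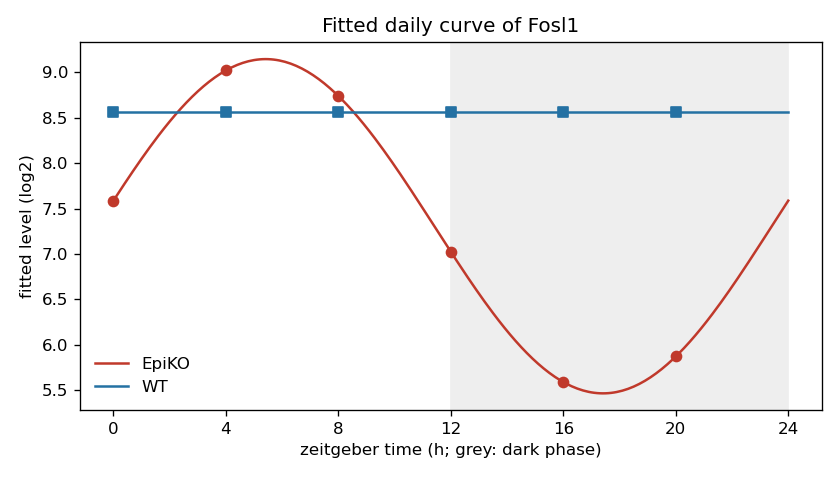
Fitted daily curve of Fosl1 in EpiKO (red, circles) and WT (blue, squares), with zeitgeber time on the x axis, the fitted log2 level on the y axis, points at the 6 sampled times and the dark phase in grey. The EpiKO curve peaks at 9.14 in the light phase and reaches 5.47 in the dark, and the WT line is flat at 8.56.

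Among the 764 genes assigned a rhythm in EpiKO only, the median range was 1.42-fold, and 14 genes had a larger one than Fosl1. Fosl1 was also among the less firmly assigned, since 117 of the 764 genes (15.3%) had a lower EpiKO-only weight and the median weight was 0.707. Peaks from ZT4 to ZT8 were found in 178 of the 764 genes (23.3%). The mean of Fosl1 lay under the median of all genes in EpiKO (7.31 against 7.57) and above it in WT (8.56 against 7.79), log2 values from the authors' deposited table. A further filter, which was not planned, kept genes with the average of both means at or above its median over all genes. It removed all 14 genes with a larger range than Fosl1. Among the genes kept, 3 other than Fosl1 had EpiKO only as their largest weight, with no minimum weight, and a height of at least 2 (log2). They were Thbs1, which encodes the matrix protein thrombospondin 1 (7.96-fold, peak at ZT6.21), Nr4a2, an immediate early nuclear receptor (6.13-fold, ZT4.35), and Tnfaip3, an inhibitor of NF-κB signalling (4.44-fold, ZT4.95), in the authors' deposited table. The weight of Tnfaip3, 0.454 in the authors' deposited table, did not reach the minimum.

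Likeness to Fosl1 was measured as the distance between the cosine and sine coefficients (log2) of the EpiKO curves, over the other 763 genes of its class. Nearest were Uroc1 (distance 0.331) and Saxo1 (0.332), followed by Thbs1 (0.486) and Grk1 (0.569). Mean levels in the authors' deposited table were -1.06 in EpiKO and 2.08 in WT for Uroc1, 1.13 in both for Saxo1, 12.93 in both for Thbs1 and -0.89 in EpiKO and 9.92 in WT for Grk1 (log2). The likeness is one of fitted curve shape and says nothing of level, and Saxo1 and Thbs1 had 1 shared mean where Uroc1 and Grk1, as Fosl1, were lower in EpiKO.

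In every one of the 8 members the EpiKO-only weight exceeded the WT-only weight, which was so in 42.2% of all genes and, chosen after seeing the data, in 37.5% of the 1400 genes with both means at or above 11 (log2). The ratio of these weights was 52.6 for Fosl1, 4.44 for Fosb, 3.51 for Atf3, 2.23 for Fosl2 and 1.54 for Fos. It was 1.15 for Jun, 1.10 for Junb and 1.09 for Jund, close to even. The members are known to answer shared stimuli, so they are not independent of one another, and the shares among all genes are given for scale only. Of 29 other immediate early genes measured, 23 likewise had the larger weight on EpiKO only, and for 5 of them it was the largest of all weights. These 5 were Nr4a2 (0.860), Nfkbiz, an atypical inhibitor of NF-κB (0.604), Klf6 (0.438), Gadd45a (0.433) and Plk2 (0.411) in the authors' deposited table. Their peaks lay between ZT3.14 and ZT5.24, earlier than that of Fosl1, and 3 of the 5 did not reach the minimum weight.

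**Figure D3:**
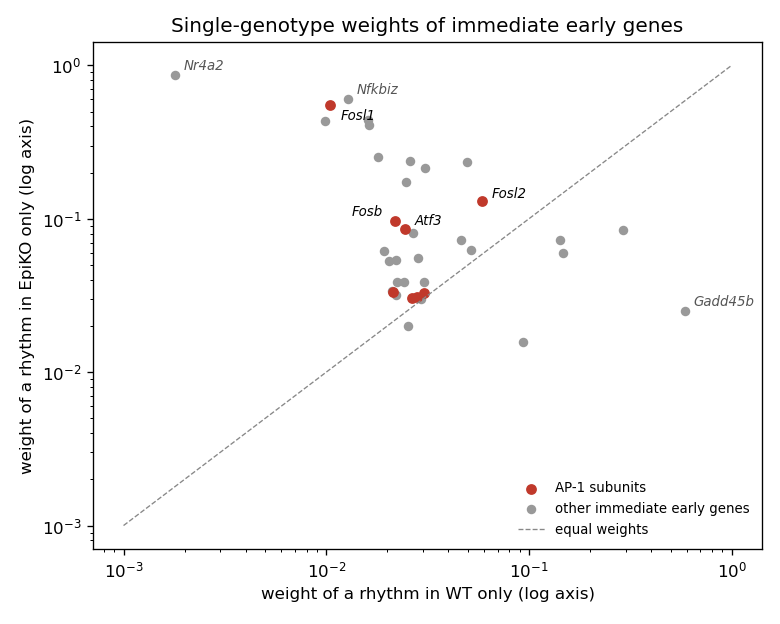
Weight of a rhythm in EpiKO only (y axis, log) against weight of a rhythm in WT only (x axis, log) for the 8 AP-1 genes (red) and 29 other immediate early genes (grey), with a dashed line of equal weights. All 8 AP-1 genes and 23 of the 29 others lie above the line, Jun, Junb and Jund close to it.

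Mean levels were lower in EpiKO in 4 of the 8 members (37.4% of all genes, and 42.2% of the 1400 genes with both means at or above 11) and higher in none (32.7% of all genes). The call was made where the authors' model with unequal means had a weight of at least 0.5. Where that model had less, the fit holds 1 shared mean, so a difference of 0 is set by the model and is not a measured equality. The median difference over the 8 members, EpiKO minus WT, was -0.41 (log2), with a range of -2.26 to 0, and over all genes it was 0.00. In bulk tissue a lower number of cells of a type and less RNA per cell cannot be told apart.

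The Fos-family members other than Fosl1 had shared means. Fos had 16.05 in EpiKO and in WT, with an unequal-mean weight of 0.356, and Fosb had 15.65 in both, with 0.391, in the authors' deposited table. Fosl2 had 12.49 in both, with an unequal-mean weight of 0.299, in the authors' deposited table. Fosl1 was the exception, with 7.31 in EpiKO and 8.56 in WT in the authors' deposited table, a difference of -1.26 (log2) that put EpiKO at 0.419 times the WT level.

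All of the Jun family were lower in EpiKO. Jund, whose product is often found in quiescent and differentiating cells, had 11.74 in EpiKO and 14.00 in WT in the authors' deposited table, a difference of -2.26 (log2) or 0.209 times the WT level. Junb had 13.94 in EpiKO and 14.88 in WT in the authors' deposited table, a difference of -0.94 or 0.522 times the WT level. Jun had 14.64 in EpiKO and 15.46 in WT in the authors' deposited table, a difference of -0.82 or 0.567 times the WT level. The unequal-mean weights were 1.00 for Jund, 0.975 for Junb, 0.859 for Jun and 0.718 for Fosl1 in the authors' deposited table. Differences as low as these or lower were found in 10.2% of all genes for Jund, 15.05% for Fosl1, 17.4% for Junb and 18.7% for Jun. In the authors' deposited table Atf3 had a shared mean of 14.68 and an unequal-mean weight of 0.176.

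**Figure D4:**
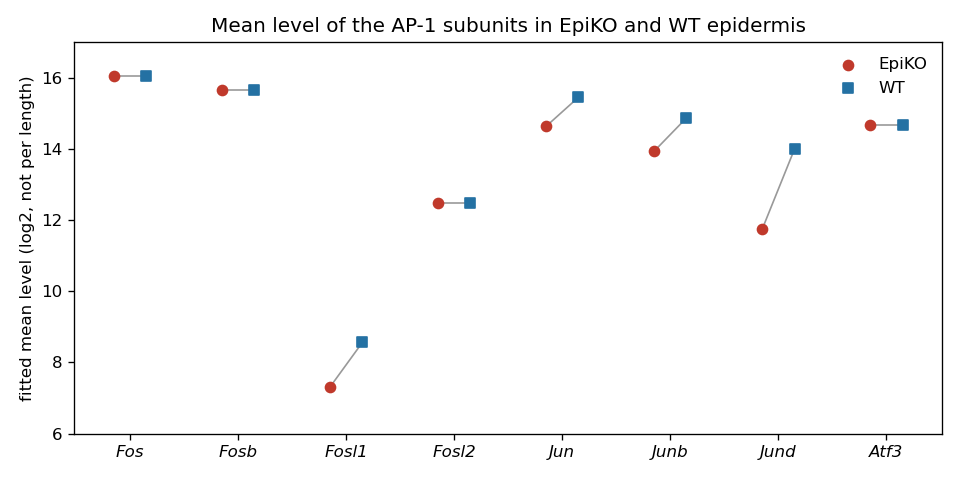
Fitted mean level (y axis, log2, not per length) of the 8 AP-1 genes in EpiKO (red circles) and WT (blue squares), with a grey line joining the genotypes. Fosl1, Jun, Junb and Jund are lower in EpiKO, by 0.82 to 2.26 units for the Jun family, and Fos, Fosb, Fosl2 and Atf3 have 1 fitted mean for both.

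Levels between genes were compared per kilobase of merged exons (log2). In EpiKO the order was Fos (14.82), Atf3 (13.58), Fosb (13.01), Jun (12.96), Junb (12.74), Jund (11.003), Fosl2 (9.21) and Fosl1 (6.28). In WT it was Fos (14.82), Jun (13.78), Junb (13.67), Atf3 (13.58), Jund (13.26), Fosb (13.01), Fosl2 (9.21) and Fosl1 (7.54). Fos led and Fosl1 came last in both genotypes, and Jun and Junb stood below Atf3 and Fosb in EpiKO but above them in WT. Whether neighbours in these orders differ cannot be said without values per library. With the length of the longest transcript in place of the merged exons, 4 of 8 members kept their rank in EpiKO.

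The 4 members with a lower mean in EpiKO were also the 4 whose exons lie opposite exons of a gene on the other strand. The share of exon bases so placed was 57.2% in Fosl1 (opposite Ccdc85b), 52.6% in Jund (opposite Gm11175), 7.52% in Junb (opposite Prdx2) and 7.28% in Jun (opposite Junos), and 0 in Fos, Fosb, Fosl2 and Atf3. With reads of 51 bases, the share of windows found in the partner as well was 52.5% for Fosl1, 48.2% for Jund, 5.80% for Jun and 5.72% for Junb. The EpiKO libraries came from a stranded kit, but the sources used here do not give the strand option with which reads were counted. If counted without strand, the reads of such pairs cannot be told apart. Ccdc85b was assigned no rhythm, with a weight of 0.554, but had 0.323 for EpiKO only and 0.0246 for WT only in the authors' deposited table, so its smaller weights leaned to EpiKO as those of Fosl1 did. Whether reads of Ccdc85b have a part in the fitted rhythm of Fosl1, or the reverse, was not tested. In the authors' deposited table the no-rhythm weight of Prdx2 was 0.813. Ccdc85b's mean differed by -0.81 (log2), and that of Prdx2 was shared.

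Grouping all genes by this overlap was chosen after seeing the data. The mean was lower in EpiKO in 73.4% of the 173 genes with 50 to 100% of exon bases opposite another gene, in 46% of 2844 genes with 5 to 50% and in 35% of 12594 genes with none. The median difference, EpiKO minus WT, was -4.33 (log2) in the 42 genes with 80 to 100%, -1.20 in the 131 genes with 50 to under 80% and 0.00 in genes with less. Jund, at -2.26, and Fosl1, at -1.26, lay between the quartiles of the group from 50 to under 80%, which were -2.63 and 0.00. Jun and Junb lay below the lower quartile of the group from 5 to under 50%, which was -0.63. Among genes with both means at or above 11, the 7 with at least 50% had a median of -0.94, and 6 of them were lower. Genes with 1 exon, as Jun and Jund are, another group chosen after seeing the data, had a lower mean in EpiKO in 61.4% of 824 cases, with a median difference of -0.85. The part of strand overlap in the lower means of the 4 members was not tested.

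**Figure D5:**
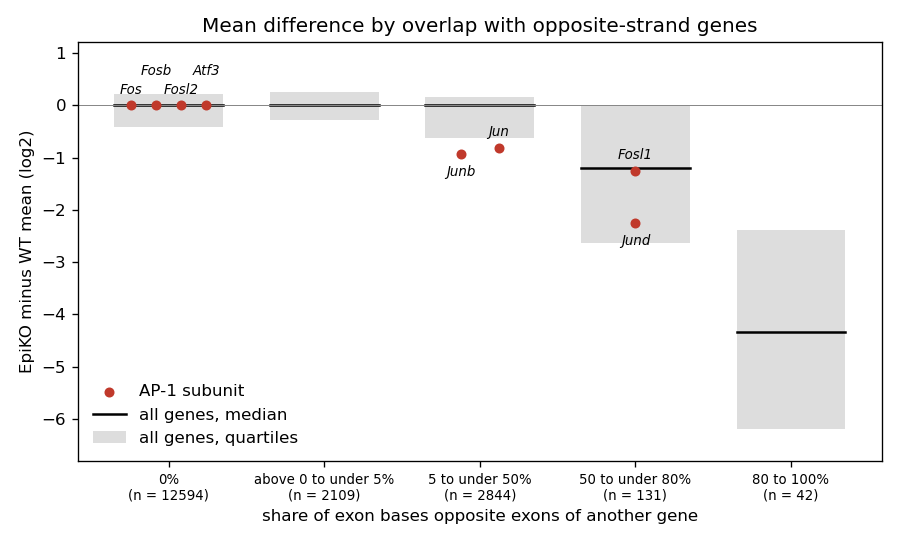
Difference of mean levels, EpiKO minus WT (y axis, log2), by the share of exon bases that lie opposite exons of another gene (x axis), with grey boxes for the quartiles of all genes, black lines for their medians and red points for the AP-1 genes. The medians are 0.00 in the first 3 groups, -1.20 and -4.33 in the last ones, and Fosl1 and Jund fall in the group from 50 to under 80%.

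Of the other immediate early genes, 9 of 29 measured had a lower mean in EpiKO (37.4% of all genes) and 1 a higher one (32.7%). Of the 9, 8 had no exon base opposite another gene, as had 12594 of the 17720 genes with overlap values. Only 2 of the 29 had at least 5% of their exon bases so placed, so this list says little about overlap. Nr4a2 differed by -1.39, Arc, a cytoskeletal immediate early gene, by -1.03, and Btg1, an antiproliferative factor, by -1.02 (log2). Egr1, a zinc finger factor induced with Fos, differed by -0.91, Klf4, a factor of keratinocyte differentiation, by -0.85, and Ier2 by -0.69. The median over the 29 genes was 0, and 18 of them were assigned no rhythm (56.7% of all genes). Assigned rhythms were those of Nr4a2 (6.13-fold) and Nfkbiz (2.83-fold, peak at ZT4.36) in EpiKO only, Gadd45b (2.71-fold, ZT10.5) in WT only, and Mcl1 (1.38-fold, ZT8.57) and Btg1 (1.19-fold, ZT8.26) with the same rhythm in both, in the authors' deposited table.

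Of 17 other leucine zipper partners of AP-1, 8 were assigned no rhythm (56.7% of all genes). Another 5 were assigned the same rhythm in both (16.7%) and 1 a rhythm in EpiKO only (4.31%). Jdp2, a repressor that dimerises with Jun, cycled 3.25-fold in both with a peak at ZT14.9, and Maff, a small Maf protein, 2.25-fold with a peak at ZT8.37, in the authors' deposited table. The level of Jdp2 was low, with means of 3.13 in EpiKO and 3.73 in WT (log2). The medians of all genes were 7.57 in EpiKO and 7.79 in WT. Atf2, the partner of Jun at TGACATCA, cycled 1.23-fold in both with a peak at ZT5.54, and Ddit3, a stress-induced C/EBP relative, 1.27-fold in EpiKO only, in the authors' deposited table. Mean levels were lower in 6 of the 17 (37.4% of all genes) and higher in 5 (32.7%), with a median difference of 0. Cebpb, a factor of keratinocyte differentiation, differed by -2.24 (log2), with 20.7% of its exon bases opposite another gene, and Atf4, the main factor of the integrated stress response, by 0.73.

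Upstream of AP-1, 9 of 23 kinases and serum response factors were assigned no rhythm (56.7% of all genes). Another 8 were assigned the same rhythm in both (16.7%) and 2 a rhythm in WT only (8.41%). Ranges were small, as with Elk4, a partner of serum response factor (1.25-fold in both, peak at ZT7.83), Mapk8, which encodes the Jun kinase JNK1 (1.19-fold in both, ZT10.7), and Map2k6, a p38 activator (1.26-fold in WT, ZT9.83), in the authors' deposited table. Means were lower in 8 (37.4% of all genes) and higher in 10 (32.7%), with a median of 0, and Srf itself differed by -0.81 (log2). Rps6ka3, which encodes the kinase RSK2, was higher in EpiKO by 1.62 and cycled 1.21-fold in WT only. Among phosphatases and Sprouty proteins that damp these kinases, 8 of 17 were flat (56.7% of all genes). WT-only cycling was assigned to 2 (8.41%) and the same rhythm in both to 2 (16.7%). The mean was lower in 3 (37.4% of all genes) and higher in 3 (32.7%). Spry1, an inhibitor of receptor kinase signalling, cycled 2.12-fold in WT only with a peak at ZT8.94, and Dusp14 1.51-fold with a peak at ZT10.4, in the authors' deposited table. For Spry1 the weight was 0.788 for WT only and 0.211 for different rhythms in the authors' deposited table. Of its exon bases, 24.4% lie opposite another gene. Dusp1, an immediate early phosphatase, was flat with a shared mean of 14.24 in the authors' deposited table.

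Of 35 known AP-1 targets of keratinocytes, 21 were assigned no rhythm (56.7% of all genes) and 1 an EpiKO-only rhythm (4.31%). A WT-only rhythm was assigned to 4 (8.41% of all genes), the same rhythm to 4 (16.7%) and different ones to 2 (2.65%). Ereg, which encodes the growth factor epiregulin, was the EpiKO-only gene, with a weight of 0.567, 3.50-fold and a peak at ZT3.02, in the authors' deposited table. Mmp3, a stromelysin, cycled 1.84-fold with a peak at ZT3.51 in EpiKO and 4.37-fold with a peak at ZT20.8 in WT in the authors' deposited table. Mmp9, a gelatinase, cycled 2.70-fold in WT only, and Ivl, which encodes the cornified envelope protein involucrin, 1.90-fold in either genotype, in the authors' deposited table. Means were lower in 8 of the 35 (37.4% of all genes) and higher in 7 (32.7%), with a median of 0. The largest differences of this list were those of the wound keratins, Krt16 with 7.35 in EpiKO and 13.47 in WT and Krt6a with 6.37 in EpiKO and 14.30 in WT, log2 values of the authors' deposited table. Krt6a has close relatives that can share reads, and 24.8% of its exon bases lie opposite another gene, so its value is uncertain. Shared windows were counted for the 8 AP-1 genes only, so how far Krt16 shares reads with other keratins is not known either.

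Among regulators of AP-1 proteins, 9 of 13 were flat (56.7% of all genes). Cop1, a ubiquitin ligase for Jun, cycled 1.19-fold in WT only in the authors' deposited table. Means were lower in 5 of the 13 (37.4% of all genes) and higher in 4 (32.7%), with a median of 0. Heat shock genes, which respond to dissociation and stress as immediate early genes do, had lower means in 8 of 12 (37.4% of all genes). They had higher ones in 2 (32.7% of all genes), with a median difference of -0.79 (log2). Of the 8 lower ones, 3 had at least 5% of their exon bases opposite another gene and 4 had none. Hspb1 differed by -1.46, Hspa8 by -1.43 and Hsp90aa1 by -1.25, and Hspa1a and Hspa1b, near-identical copies that can share reads, by -3.57 and -1.83. In Hspa1a 19.0% of the exon bases also lie opposite another gene. None of the 12 was assigned an EpiKO-only rhythm (4.31% of all genes) and 8 were flat (56.7%). In 6 the weight was larger on EpiKO only than on WT only (42.2% of all genes). The part of dissociation in the levels of the AP-1 genes was not tested.

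Markers of the cells a preparation of epidermis can hold were compared between genotypes by their summed level (log2). Keratinocyte markers summed to 19.67 in EpiKO and 19.81 in WT, with 4 of 8 lower (37.4% of all genes) and 1 higher (32.7%). Langerhans and dendritic cell markers summed to 12.18 in EpiKO and 11.58 in WT, with 5 of 6 higher, and T lymphocyte markers to 11.43 in EpiKO and 10.44 in WT, with 2 of 5 higher. Fibroblast markers summed to 9.79 in EpiKO and 9.48 in WT (3 of 6 higher), melanocyte markers to 9.18 in EpiKO and 9.97 in WT (2 of 6 lower) and endothelial markers to 3.94 in EpiKO and 3.12 in WT (4 of 4 higher). The endothelial markers were low, with means of 0.49 to 3.42 in EpiKO and -2.13 to 2.91 in WT. The medians of all genes were 7.57 in EpiKO and 7.79 in WT. Neutrophil and monocyte markers summed to 5.69 in EpiKO and 8.90 in WT, with 2 of 5 lower and 1 higher. This gap was carried mostly by Csf3r, with -0.04 in EpiKO and 8.67 in WT in the authors' deposited table, and without it the sums were 5.66 in EpiKO and 6.08 in WT. Likewise the melanocyte gap was carried mostly by Tyr, with 3.60 in EpiKO and 8.65 in WT in the authors' deposited table, without which the sums were 9.15 in EpiKO and 9.24 in WT. Without Thy1 the T lymphocyte sums were 8.39 in EpiKO and 7.96 in WT. Leaving out the marker that differed most in its list was chosen after seeing the data. Each of the 8 keratinocyte markers, which stand for the labelled cell type, had a mean of at least 13.89 in EpiKO and 13.73 in WT. The part of immune or other cells in the AP-1 levels was not tested. The targeted gene Arntl was assigned a rhythm in WT only, with a weight of 0.882 and a 4.65-fold range, and had mean levels of 9.65 in EpiKO and 9.50 in WT, log2 values of the authors' deposited table. That mean is over the whole gene and does not check the deleted part.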

How the data were processed

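Messenger RNA of 24 EpiKO epidermis libraries was sequenced with reads of 51 bases from a stranded kit, per the labels' protocols. Per the submitters' processing notes, the build was mm10 and the tools were HISAT2 2.2.1, featureCounts 1.6.0, Trimmomatic 0.36, SAMtools 1.3.1 and edgeR. The sources used here do not give their order, settings or strand option. The comparison of rhythms with WT was made by the authors with dryR, per the series' design text, and its output is the 1 table used.

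The authors deposited a weight per model, a score from 0 to 1, and mean levels, coefficients and amplitudes on a log2 scale. How libraries were scaled is not stated in the sources used here. The side of the table not called WT was taken as EpiKO. Of 17721 identifiers, 17720 matched a symbol. The deposited amplitude is the peak-to-trough height, which held for 5062 EpiKO and 5914 WT rhythms within a tolerance of 1e-06.

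The planned test across libraries was not run, since the table has no values per library. Exon overlaps and 51-base windows were counted on GENCODE M21 (mm10). The members and the 7 gene lists were chosen with earlier results of these data known. Named genes are the members, Arntl, overlapping genes, the 4 nearest to Fosl1 and, per list, up to 4 by amplitude and 4 by mean difference, of which not all are printed. Tnfaip3, Klf6, Gadd45a, Plk2, Egr1, Klf4, Ier2, Dusp1, Srf, Mapk8, Hsp90aa1, Csf3r, Tyr and Thy1 were named after their values were seen where that rule does not take them. Python 3.11.15, NumPy 2.4.6, pandas 2.3.3 and matplotlib 3.10.9 were used. The functions for fitted curves, their heights and peaks, and the classes from weights were tested on simulated data. The counts of overlaps, windows, elements, lists and markers were not.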

Additional observations from a re-analysis of the deposited data

How the results depend on the processing

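No paired analysis was possible because the table holds no values per library, and for the same reason the fit across libraries, its replicate block and the leaving out of each replicate were not run. The count of 6 members without rhythm was 7 with no minimum weight or one of 0.4, when Fosl2 joins, and 6 at 0.8. The 1 member with an EpiKO-only rhythm, Fosl1, became 0 at a minimum weight of 0.8. Leaving out the 4 members that share at least 5% of their windows with another gene left 3 without rhythm, 0 with an EpiKO-only rhythm and 0 with a called mean difference, since the members left out are Fosl1, Jun, Junb and Jund. The 4 lower means became 3 at a minimum weight of 0.8. Minimum amplitudes, a minimum difference of 0.5, centring on the median and a filter on expression moved none of these counts. Of the 4 genes nearest to Fosl1, 2 were also nearest when genes of every class with an EpiKO rhythm entered. Depth is unknown, so no limit of detection can be given, and how firmly a fitted rhythm rests on single animals cannot be seen.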
